A study of Homo sapiens with 48 samples.

Results

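The 10 AP-1 family genes described here were chosen by name and comprised FOS, FOSB, FOSL1, FOSL2, JUN, JUNB, JUND, ATF3, BATF3 and MAFF, out of 20007 protein-coding genes of GENCODE on chromosomes 1 to 22, X and Y. Each gene was represented by its gene body with 50 kb on either side (hg38), and every peak that overlapped such a window was assigned to the gene. The windows of ATF3 and BATF3 overlapped by 34.4 kb. No RELA, RELB or FOSL1 peak was counted for both, and 1 H3K27ac region in each list was. Apart from FOS and JUN, the windows also held other protein-coding genes, from 1 near FOSL2, ATF3 and BATF3 to 10 near FOSL1, so a region in a window need not act on the member.

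The peaks came from ChIP-seq in L3.6pl, an established human pancreatic ductal adenocarcinoma cell line. RELA, RELB and H3K27ac were profiled in vehicle cells, which received PBS, and after TNFα or TWEAK for 30 min or 6 h, and FOSL1 was profiled in vehicle cells alone. The 48 samples formed 16 conditions of 3 replicates, and each condition was deposited as 1 list of merged replicates, so no replicate spread could be measured and all comparisons below are descriptions of lists. For RELA after 30 min of TNFα the peak names carry the label of replicate 1, and the pooling of that list is not settled. The labels do not give the time at which vehicle cells were harvested, so the same vehicle list served both times. RELA was precipitated with protein G beads and the other targets with protein A, so RELA and RELB folds also differ by reagent. H3K27ac lay within 500 bp of the start sites of 6 of 6 epithelial keratin and adhesion genes in vehicle cells and of 0 of 4 immune, 0 of 4 fibroblast and endothelial and 0 of 4 acinar and islet markers.

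AP-1 is a dimer of basic leucine zipper proteins, usually a FOS member with a JUN member, that binds the TPA response element TGA(C/G)TCA. Matches were searched with the looser TGANTCA (N is any base), which also takes TGAATCA and TGATTCA. FOS and JUN genes are classic immediate early genes, transcribed within minutes of a stimulus without new protein synthesis, and FOSL1 and JUN family proteins bind many enhancers of epithelial cancers. NF-κB dimers of RELA (canonical pathway, activated quickly by TNFα) or RELB (noncanonical pathway, activated slowly by TWEAK) bind the κB consensus, and H3K27ac marks active promoters and enhancers.

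The sequences below are the regions that the results turn on, read from hg38 around the summit of the strongest peak, in each case on the forward strand (FOSL1 and JUN are transcribed from the reverse strand). Capitals mark exact matches of TGANTCA, of the NF-κB consensus and of the CArG box, the element bound by serum response factor, on both strands. Matches of the NF-κB consensus that overlap each other by all but 1 base are merged in the capitals, and the CArG box was added after the sequences had been seen. The first set holds the 6 sites called in 3 or more of the 10 RELA and RELB lists.
MAFF +16.8 kb, chr22:38218655-38218855: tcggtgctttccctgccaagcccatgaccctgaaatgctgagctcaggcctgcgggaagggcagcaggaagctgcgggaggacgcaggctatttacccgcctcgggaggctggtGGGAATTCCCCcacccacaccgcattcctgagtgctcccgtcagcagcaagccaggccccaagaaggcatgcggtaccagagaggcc
JUNB +2.3 kb, chr19:12793664-12793864: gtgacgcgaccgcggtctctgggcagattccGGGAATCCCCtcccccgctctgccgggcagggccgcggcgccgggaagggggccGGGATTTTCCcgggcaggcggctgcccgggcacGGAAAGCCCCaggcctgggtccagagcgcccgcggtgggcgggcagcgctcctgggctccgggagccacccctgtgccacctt
FOSL1 -12.6 kb, chr11:65912917-65913117: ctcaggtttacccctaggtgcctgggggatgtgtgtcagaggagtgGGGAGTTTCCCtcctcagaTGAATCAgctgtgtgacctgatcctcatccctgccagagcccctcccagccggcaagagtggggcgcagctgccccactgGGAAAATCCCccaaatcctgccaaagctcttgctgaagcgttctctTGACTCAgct
FOSL1 -15.4 kb, chr11:65915655-65915855: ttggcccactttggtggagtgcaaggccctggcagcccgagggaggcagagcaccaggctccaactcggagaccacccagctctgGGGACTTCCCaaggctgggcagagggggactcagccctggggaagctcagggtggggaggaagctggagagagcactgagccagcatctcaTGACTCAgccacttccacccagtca
FOSL1 +26.7 kb, chr11:65873635-65873835: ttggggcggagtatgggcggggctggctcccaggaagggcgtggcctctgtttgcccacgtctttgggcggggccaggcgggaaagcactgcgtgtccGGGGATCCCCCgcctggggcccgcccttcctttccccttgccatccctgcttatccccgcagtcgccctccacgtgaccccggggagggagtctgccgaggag
FOSB -12.1 kb, chr19:45455814-45456014: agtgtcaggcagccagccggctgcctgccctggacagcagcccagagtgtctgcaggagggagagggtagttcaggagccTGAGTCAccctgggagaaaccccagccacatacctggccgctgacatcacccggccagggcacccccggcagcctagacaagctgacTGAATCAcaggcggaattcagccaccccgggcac
The next pair shows the FOS promoter, with strong FOSL1 signal and no TGANTCA in the window, and the strongest FOSL1 region near JUN, which holds 2 of them.
FOS promoter, chr14:75278437-75278637: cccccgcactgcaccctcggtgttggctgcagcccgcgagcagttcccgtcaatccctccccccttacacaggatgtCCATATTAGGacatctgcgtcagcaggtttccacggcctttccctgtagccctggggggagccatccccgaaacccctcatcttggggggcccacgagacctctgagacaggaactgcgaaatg
JUN +56.5 kb, chr1:58727472-58727672: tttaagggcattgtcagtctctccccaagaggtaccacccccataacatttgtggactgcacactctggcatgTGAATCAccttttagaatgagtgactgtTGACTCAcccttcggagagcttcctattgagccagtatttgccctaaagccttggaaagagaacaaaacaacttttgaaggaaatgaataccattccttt
The last one is a tandem repeat near MAFF, shown because it was the sole site of the family in repeated sequence.
MAFF -12.9 kb, chr22:38189007-38189207: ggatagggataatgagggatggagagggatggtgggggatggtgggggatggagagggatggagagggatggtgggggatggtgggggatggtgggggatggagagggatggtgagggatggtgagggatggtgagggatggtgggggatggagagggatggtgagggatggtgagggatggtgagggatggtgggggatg
Names give the distance of the summit from the start site of the gene in the direction of transcription.

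To see which family genes had NF-κB nearby, the lists were counted per gene. In vehicle cells RELA regions lay in the windows of 3 members (FOSL1, JUNB and MAFF), against 5.05% of all genes. After 30 min of TNFα 9 of the 10 members had a RELA region, against 48.1% of all genes, and BATF3 was the exception. The same 9 members had a region that did not overlap a vehicle region, against 46.9% of all genes. At 6 h of TNFα the RELA list held regions near 4 members (FOSB, FOSL1, JUNB and MAFF; 26.8% of all genes), each with a region not in vehicle (24.5% of all genes). In number of regions, the 10 windows held 3 in vehicle, 26 at 30 min of TNFα and 11 at 6 h.

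After TWEAK the windows held 3 RELA regions at 30 min and 4 at 6 h. At 30 min FOSL1, JUNB and MAFF had RELA (3 members; 7.58% of all genes), and at 6 h FOSL1 and MAFF had it (2 members; 5.11%). A RELA region not in vehicle lay near 1 member at 30 min (FOSL1; 4.23% of all genes) and near 2 at 6 h (FOSL1 and MAFF; 2.16%). The RELA list of 30 min of TNFα was the longest, with 11266 regions against 2791 to 7294 in the other RELA lists, and sequencing depth is unknown, so the part of list length in these counts was not tested.

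RELB was called near 5 members after 6 h of TWEAK (FOSB, FOSL1, FOSL2, JUNB and MAFF), against 13.6% of all genes. Of these, FOSB, FOSL1 and FOSL2 had a RELB region not in vehicle (3 members; 11.8% of all genes). RELB was called near JUNB and MAFF in vehicle (2 members; 3.06%) and near FOSL1 and MAFF at 6 h of TNFα (2 members; 3.87%), where the FOSL1 region was not in vehicle (1 member; 2.15%). In the 30 min lists of TNFα and TWEAK RELB was called near 0 members, against 1.58% and 1.39% of all genes, and of a region not in vehicle 0.455% and 0.4%. The RELB lists of 30 min were also the shortest, with 2835 regions for TNFα and 2414 for TWEAK, against 4101 in vehicle and 3542 and 4052 at 6 h of TNFα and TWEAK, and the part of list length in these counts was not tested.

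**Figure D1:**
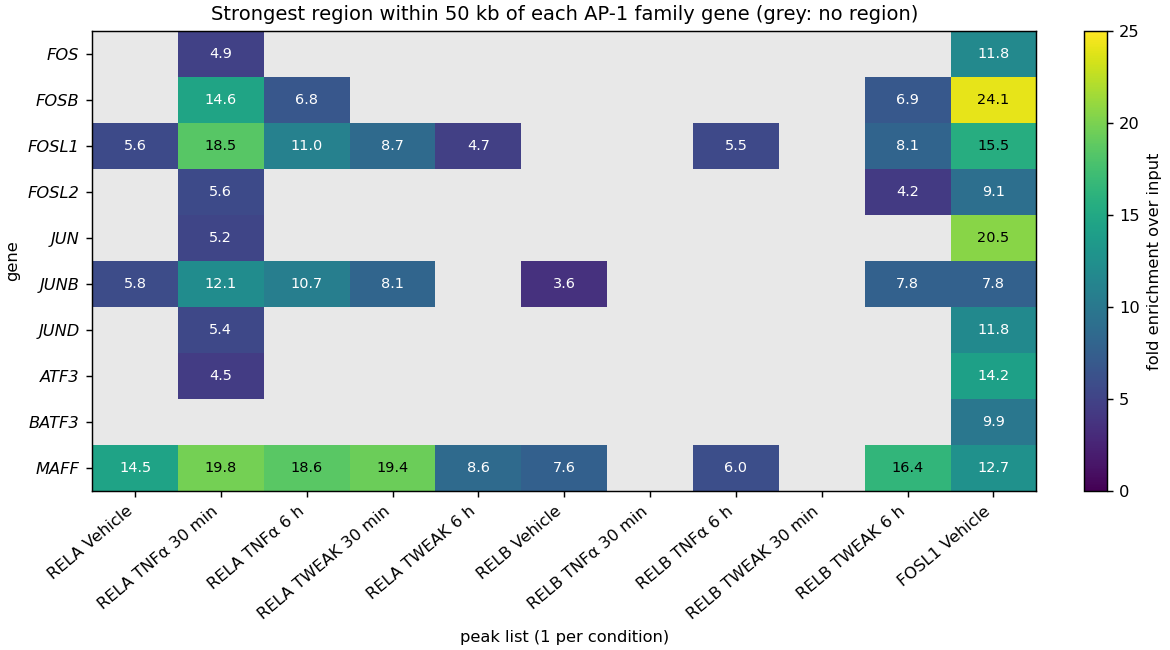
Fold enrichment over input of the strongest region of each gene (rows) in the 10 RELA and RELB lists and the FOSL1 list (columns), as numbers and colours on a linear scale from 0 to 25, with grey where no region was called. MAFF is filled in 8 of the 10 RELA and RELB lists and FOSL1 in 7, while FOS, JUN, JUND and ATF3 are filled in the RELA list of 30 min of TNFα alone and BATF3 in none.

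The members therefore fell into groups by the lists in which they appeared. MAFF was found in 8 of the 10 RELA and RELB lists, FOSL1 in 7, JUNB in 6, FOSB in 3 and FOSL2 in 2. FOS, JUN, JUND and ATF3 were found in the same single list, RELA at 30 min of TNFα. By the share of lists in common (lists with both genes over lists with either), FOSL1 and MAFF were most alike at 0.875, followed by JUNB and MAFF at 0.750 and FOSB and FOSL2 at 0.667. Pairs of the 4 genes with a single list have a share of 1 that rests on that list alone.

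Joined across lists, the RELA and RELB peaks formed 29 sites. All 29 were called for RELA, 7 were also called for RELB and 0 for RELB alone. At 30 min of TNFα 26 of the 29 were called, and 16 sites were called in no other list. Of the 11 sites of 6 h of TNFα, 9 had been called at 30 min and 2, both within TMEM184B downstream of MAFF, had not. All 7 RELB sites of 6 h of TWEAK were RELA sites of 30 min of TNFα, and 3 of them were RELA sites at 6 h of TWEAK. Over the whole lists, 3072 of 11266 RELA regions of 30 min of TNFα overlapped the RELB list of 6 h of TWEAK (4052 regions). Sites were joined in the family windows alone, so the site counts have no share over the genome beside them. Within 1 kb of the member's start site lay 3 sites (FOSB, FOSL1 and MAFF), and for 18 of the 29 the nearest protein-coding start site was that of the member.

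MAFF, which encodes a small MAF protein without a transactivation domain, had the site called most often. It lies 2248 bp past the annotated 3′ end of MAFF in intergenic sequence. RELA had a fold enrichment over input of 14.5 in vehicle, 19.8 and 18.6 after 30 min and 6 h of TNFα, and 19.4 and 8.65 after 30 min and 6 h of TWEAK. RELB had 7.62 in vehicle, 6.01 after 6 h of TNFα and 16.4 after 6 h of TWEAK, and was not called at 30 min of either ligand. RELA was lowest and RELB highest of their lists at 6 h of TWEAK, a description of single lists whose spread is not known. The summits of the 8 lists lay within 40 bp of each other, beside the merged κB match in the sequence above, and FOSL1 was enriched 10.8-fold in vehicle. Among the 20007 genes, the strongest RELA region of MAFF ranked 36 in vehicle and 18 at 30 min of TWEAK.

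JUNB, a JUN family partner that can replace or oppose JUN, had its main site 449 bp past its 3′ end. RELA was enriched 5.84-fold in vehicle, 12.1-fold and 10.7-fold after 30 min and 6 h of TNFα and 8.12-fold after 30 min with TWEAK, and was not called at 6 h of TWEAK. RELB was enriched 3.59-fold in vehicle and 7.79-fold at 6 h of TWEAK, with −log10 q of 1.92 and 15.1. With q of at most 0.001, 4 members in place of 3 had a RELB region at 6 h of TWEAK and not in vehicle. The window printed above held 3 separate κB matches and no TGANTCA, while FOSL1 was enriched 7.77-fold. Further RELA sites lay 2.6 kb and 41.8 kb upstream, with folds of 6.19 and 10.2 at 30 min and 5.56 and 6.33 at 6 h of TNFα. The site at 41.8 kb was nearest to the start site of BEST2, 2060 bp away.

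FOSL1, which encodes the FRA-1 protein measured by the FOSL1 ChIP, had 6 RELA sites after 30 min of TNFα. The strongest, 26.7 kb downstream of its start site, lay 935 bp from the start site of EFEMP2 and had RELA folds of 18.5 and 10.0 after 30 min and 6 h of TNFα and 8.66 after 30 min with TWEAK, with RELB at 6.55 at 6 h of TWEAK. Neither factor was called there in vehicle. Upstream of FOSL1, the site at 12.6 kb had RELA in vehicle (5.57), at both TNFα times (10.0 and 10.95) and at 6 h of TWEAK (4.20), and RELB at 6 h of TNFα (5.5) and of TWEAK (8.09). The neighbouring site at 15.4 kb had RELA folds of 6.01 and 8.93 at the TNFα times and 4.75 at 6 h of TWEAK, and RELB at 4.30 at 6 h of TWEAK. Both upstream sites were nearer to the start site of C11orf68 than to that of FOSL1. They differed in FOSL1 itself, which was enriched 10.9-fold at 15.4 kb and was not called at 12.6 kb. The window at 12.6 kb holds 2 exact TGANTCA matches, TGAATCA and TGACTCA. At the FOSL1 promoter, 241 bp upstream of the start site, RELA was called at 30 min of TNFα alone, with a fold of 6.15.

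FOSB, a FOS family protein with a short splice form, had its main site 12.1 kb upstream, in the span of ERCC1 outside its canonical transcript. RELA was enriched 14.6-fold and 6.77-fold after 30 min and 6 h of TNFα, RELB 6.93-fold at 6 h of TWEAK, and neither was called in vehicle. FOSL1 was enriched 24.1-fold there, rank 31 of the 58864 FOSL1 regions, and the FOSL1 summit lay 9 bp from that of RELA. At the FOSB promoter, 305 bp upstream of the start site, RELA was enriched 7.44-fold at 30 min of TNFα alone.

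**Figure D2:**
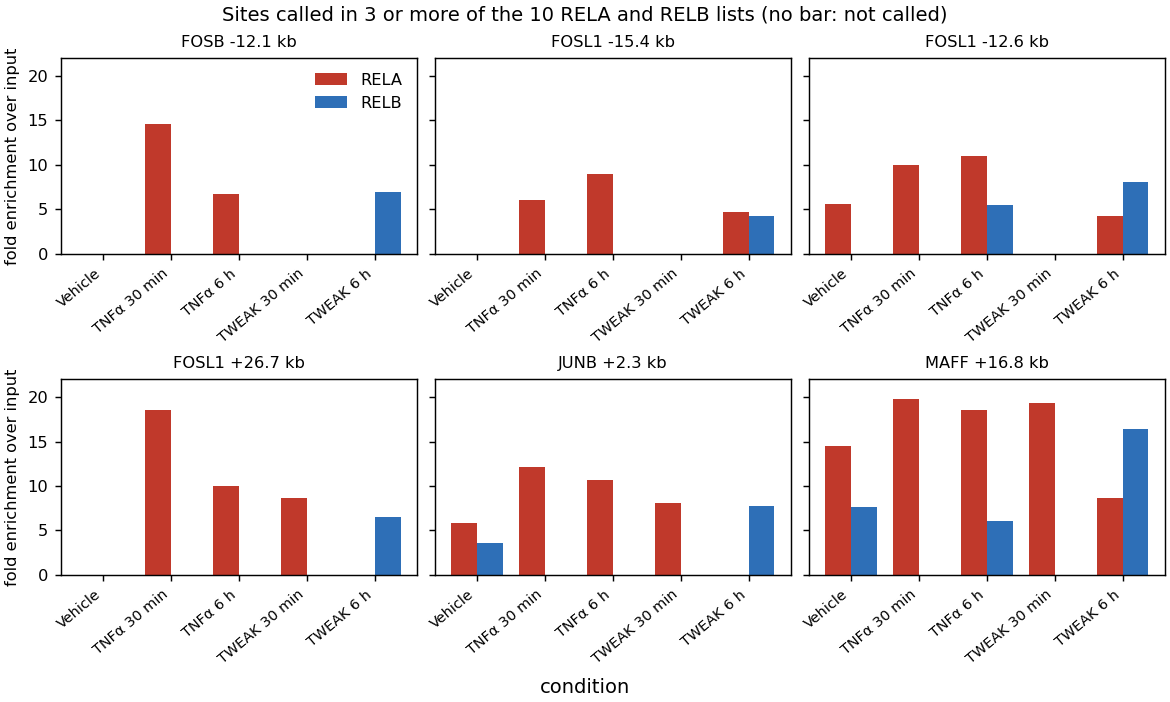
Fold enrichment over input (linear axis from 0) of RELA (red) and RELB (blue) in each condition at the 6 sites called in 3 or more lists, with no bar where the site was not called. Every site has a RELB bar at 6 h of TWEAK, and only MAFF has bars for RELA in all 5 conditions.

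FOSL2, which encodes FRA-2, had 4 RELA sites at 30 min of TNFα with folds from 3.63 to 5.60. The one 5.5 kb upstream was the only one also called for RELB, at 4.22 at 6 h of TWEAK, and FOSL1 was enriched 6.07-fold there. The 4 genes with RELA at 30 min of TNFα alone had weak regions. FOS, the prototype of the family and a gene without other protein-coding genes in its window, had 3, with folds of 4.55, 4.72 and 4.87, JUN, the usual partner of FOS proteins, had 2, with 3.77 and 5.20, and the single regions of JUND and ATF3 had 5.39 and 4.47, below the median fold of 5.93 of that list. The JUND region lay 47.1 kb upstream, nearest to LSM4. BATF3, a partner of JUN proteins known from dendritic cells, had no RELA or RELB region in any of the 10 lists. Ranked by strongest RELA region at 30 min of TNFα among the 20007 genes, MAFF stood at 179, FOSL1 at 322, FOSB at 1047 and JUNB at 1909, and the other 5 called members stood between 7255 and 8932.

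**Figure D3:**
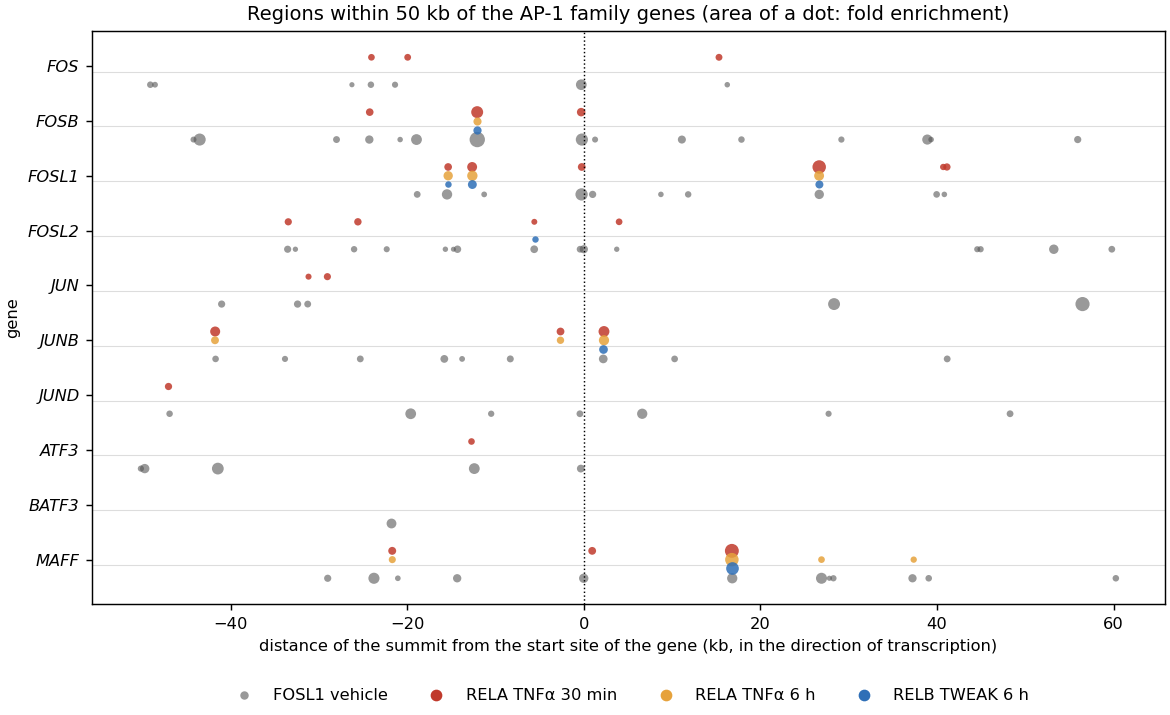
Summits of RELA regions at 30 min (red) and 6 h (orange) of TNFα, RELB regions at 6 h of TWEAK (blue) and FOSL1 regions of vehicle cells (grey), by distance in kb from the start site of each gene (dotted line), with the area of a dot proportional to fold enrichment. The columns of red, orange, blue and grey dots near MAFF, JUNB, FOSB and FOSL1 are shared sites, and FOS, JUN, JUND and ATF3 have red dots only beside the grey.

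To ask whether the RELA regions of the family differed from RELA regions elsewhere, the 26 regions of 30 min of TNFα were set beside all 11266. FOSL1 was called at 16 of the 26 (61.5%, exact 95% interval 40.6 to 79.8) and at 58.0% of all. The 26 were outside tandem repeats, whereas 26.2% of all regions lay in them, and outside repeats FOSL1 was called at 48.9%. RELA was also called at 6 h of TNFα at 9 of the 26 (34.6%), against 45.2% of all and 35.3% outside repeats. RELB was called at 6 h of TWEAK at 7 of the 26 (26.9%), against 27.3% of all and 15.8% outside repeats. The RELA lists of vehicle and of 30 min of TWEAK each held 3 of the 26 (11.5%), against 19.3% and 20.1% of all and 4.34% and 7.78% outside repeats. H3K27ac lay within 500 bp of the summit in vehicle cells at 22 of the 26 (84.6%, 65.1 to 95.6), against 60.1% of all and 63.2% outside repeats. In the treated lists it lay there at 24 of the 26 after 30 min of TNFα (71.2% of all), 23 after 6 h (67.1%), 22 after 30 min with TWEAK (63.3%) and 24 after 6 h (60.5%). The intervals cover counting error only.

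Within 100 bp of the summit, 12 of the 26 regions (46.2%) held the κB consensus, against 34.8% of all and 46.2% outside repeats. TGANTCA was found in 6 (23.1%), against 14.4% and 19.0%, and the cAMP response element TGACGTCA in 2 (7.69%), one of them 33.5 kb upstream of FOSL2, against 0.577% and 0.722%. The CArG box was found in 1 (3.85%), against 0.968% and 1.31%. Among the 29 sites, FOSL1 was called at 6 of the 7 with RELB (85.7%) and at 12 of the 22 without (54.5%), with exact intervals of 42.1 to 99.6 and 32.2 to 75.6 that overlap. The split by RELB is given for these sites alone, with no share over all regions beside it.

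FOSL1 regions of vehicle cells lay in all 10 windows (90.6% of all genes have one), 86 in all. Their number ran from 1 near BATF3 and 5 near JUN and ATF3 to 15 near FOSB and FOSL2. Of the 86, 17 (19.8%) reached the 90th percentile of the list (a fold of 10.5), and they lay near 7 members, with none near FOSL2, JUNB and BATF3. The strongest were the FOSB region above and the one 56.5 kb downstream of the start site of JUN, with a fold of 20.5 and rank 171 in the list, which is nearer to MYSM1.

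Within 1 kb of the member's start site FOSL1 was called for 7 of the 10 (FOS, FOSB, FOSL1, FOSL2, JUND, ATF3 and MAFF), against 42.9% of all genes. RELA at 30 min of TNFα was called there for 3 (FOSB, FOSL1 and MAFF), against 8.23% of all genes. FOSL1 was enriched 15.5-fold at 258 bp upstream of its own start site, rank 1231 of the list, 15.2-fold at the FOSB promoter and 11.8-fold at the FOS promoter. At MAFF, FOSL2, ATF3 and JUND the strongest such region had folds of 8.97, 7.0, 6.27 and 4.67. JUN, JUNB and BATF3 had none. Of these 9 promoter regions, 2 held an exact TGANTCA within 100 bp of the summit. Their summits lay 992 bp downstream of the FOSL1 start site and 6 bp upstream of that of FOSL2. The rest of each region was not searched.

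TGANTCA was again searched within 100 bp of the summit. Over the whole list, it was found in 11.7% of the 9125 FOSL1 regions within 1 kb of any protein-coding start site and in 50.4% of those farther away. In the family windows the numbers were 5 of 24 (20.8%) and 19 of 62 (30.6%). RELA of 30 min of TNFα overlapped 16 of the 86 FOSL1 regions (18.6%), against 11.0% of all FOSL1 regions, and H3K27ac of vehicle overlapped 72 (83.7%), against 60.3%.

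H3K27ac lay within 500 bp of the start sites of 9 members in all 5 lists, against 57.6% of all genes, and BATF3 was the exception. The start site itself was covered in all 5 lists for FOS and FOSB, in 2 for ATF3, in 1 for FOSL1 and in 0 for the other 6 members. Summed over the 10 windows, with the stretch shared by ATF3 and BATF3 counted for both, it covered 109 kb in vehicle, 104 kb and 107 kb after 30 min and 6 h of TNFα and 111 kb and 97.7 kb after 30 min and 6 h of TWEAK. Relative to vehicle these sums gave ratios of 0.95, 0.975, 1.02 and 0.894, against 0.813, 0.9998, 0.845 and 0.837 for the whole lists. Medians of the ratios per gene were 0.954, 0.9998, 0.960 and 0.890 for the members, against 0.847, 0.994, 0.876 and 0.874 for all genes. Covered length was above vehicle for 3, 5, 4 and 1 members, against 18.5%, 47.8%, 20.5% and 12.9% of 18307 genes. Counted once, the shared stretch left ratios of the sums of 0.951, 0.975, 1.02 and 0.895. With windows of 10 kb, or with regions nearest to a member's start site alone, the ratio at 30 min of TNFα stood above 1, at 1.05 and 1.02. FOS had 11.5 kb in vehicle and 13.3 kb and 15.2 kb at 30 min of TNFα and TWEAK, ATF3 had 5.65 kb and 6.67 kb and 6.33 kb, and JUN had 10.1 kb in vehicle and 7.64 kb and 8.49 kb. Regions with no overlap in vehicle were found for 6 members after 30 min of TNFα (42.6% of all genes) and 7 after 6 h (42.4%), and for 6 members after 30 min of TWEAK (43.2%) and 5 after 6 h (34.5%).

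The −log10 q of H3K27ac regions, which the peak caller averages over a region, stood higher within 500 bp of the start sites of the family in both 30 min lists. At 30 min of TNFα it was higher than in vehicle for 8 of the 9 members, against 24.6% of the 11680 genes with a region in both lists, with a median ratio of 1.69 against 0.767. At 30 min of TWEAK it was higher for 9 of 9, against 25.2%, with a median of 1.66 against 0.821. At 6 h it was higher for 4 of 9 after TNFα (26.7% of genes) and for 3 of 9 after TWEAK (5.47%), with medians of 0.965 and 0.825 against 0.907 and 0.695. The 4 comparisons share the vehicle list, whose harvest time is not given.

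ATF3, a stress-induced ATF family member, had a −log10 q of 5.66 in vehicle, 23.9 and 26.3 at 30 min of TNFα and TWEAK, and 9.19 and 6.59 at 6 h. FOSB had 13.1 in vehicle, 38.8 and 36.8 at 30 min, and 9.51 and 13.8 at 6 h. FOS had 15.3 in vehicle, 27 and 25.5 at 30 min, and 10.5 and 16.1 at 6 h. For ATF3, FOSB and FOS both 30 min values were thus above vehicle and both 6 h values. The same held for FOSL1, FOSL2, JUN, JUNB and MAFF, and not for JUND. JUND, which many cells express without a stimulus, was the one gene below vehicle at 30 min of TNFα, with 41.9 in vehicle and 35.8.

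By the median, the fold enrichment of the same regions changed less. Its median ratios to vehicle were 1.11 and 1.06 at 30 min of TNFα and TWEAK, against 1.00 and 1.01 for all genes. At 6 h the medians were 0.985 and 1.03, against 0.983 and 1.04. The fold was above vehicle for 6 of the 9 members at 30 min of TNFα (51.0% of genes) and of TWEAK (52.0%), and for 3 at 6 h of TNFα (38.8%) and 7 at 6 h of TWEAK (72.5%). FOSB had folds of 3.46 in vehicle and 3.32 and 3.38 at 30 min. The fold of FOSL1 was 2.55 in vehicle and 3.39 and 3.47 at 30 min, and that of ATF3 3.59 and 4.28 and 4.27. For FOSL1, JUNB and ATF3, 1 region lay within 500 bp of the start site in vehicle and 2 in each 30 min list. The part of this difference in their folds and −log10 q was not tested. Since a q depends on read numbers as well as enrichment, and depth is unknown, the part of depth in these ratios was not tested.

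**Figure D4:**
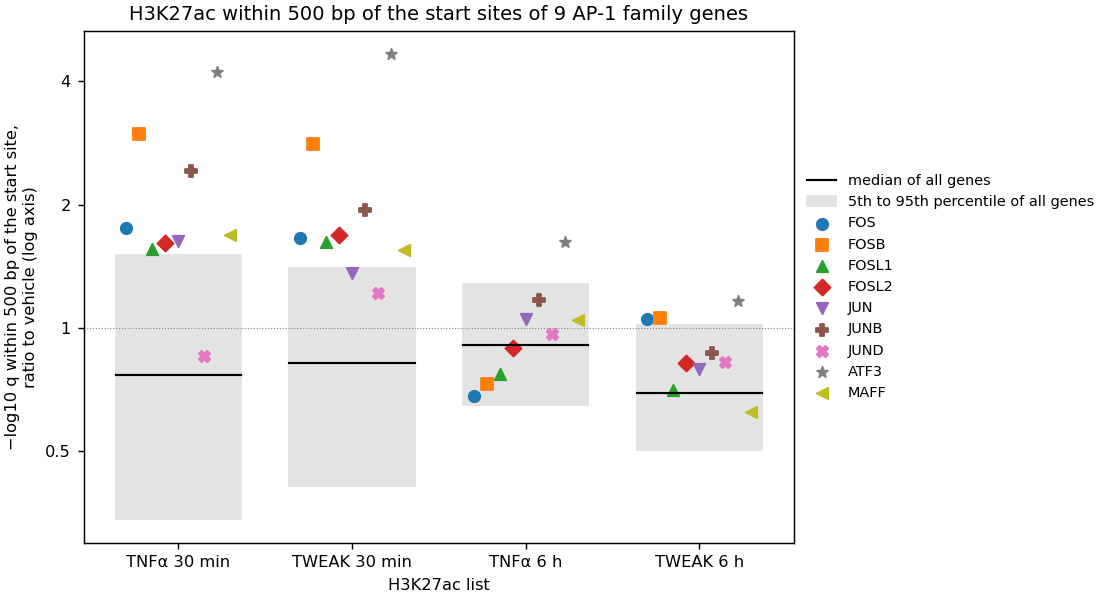
Ratio to vehicle of the −log10 q of H3K27ac within 500 bp of the start site (log axis) for 9 AP-1 family genes in the 4 treated lists, with the median (line) and the 5th to 95th percentiles (grey) of all genes. At 30 min of TNFα 8 members lie above the grey band, whose top is at 1.51, and JUND lies at 0.856. At 6 h of TNFα 1 member, ATF3, lies above it.

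Other genes were counted in the same way. Of 25 other bZIP genes whose proteins pair with or resemble AP-1, 15 had a RELA region at 30 min of TNFα, with the strongest folds near CREB1 (23), BATF (19.4) and CEBPB (17.4), and 6 had a RELB region at 6 h of TWEAK, with BACH1 (17.4) and NFE2L3 (15.2) highest. Of 16 other immediate early genes, all 16 had RELA at 30 min of TNFα, with folds from 5.22 (GADD45B) to 16.3 (ZFP36), and 4 had RELB at 6 h of TWEAK (DUSP1, KLF6, ZFP36 and IER5). The −log10 q of H3K27ac within 500 bp of the start site was above vehicle for 13 of the 16 immediate early genes at 30 min of TNFα and for 11 at 30 min of TWEAK, and for 9 of 19 and 8 of 20 of the bZIP genes with a region. The fold enrichment was above vehicle for 6 of the 16 immediate early genes in each 30 min list. For the bZIP genes it was above vehicle for 12 of 19 and 11 of 20. The counts of RELA and RELB stand against 48.1% and 13.6% of all genes. For genes with H3K27ac in both lists the shares were 24.6% and 25.2% (−log10 q) and 51.0% and 52.0% (fold).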

How the data were processed

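ChIP-seq peak lists of RELA, RELB, FOSL1 and H3K27ac from L3.6pl cells were analysed (48 samples, 16 lists of merged replicates). The submitters' processing notes name Bowtie2 2.5.0, SAMtools 1.18, deepTools 3.3.2 and MACS2. The authors mapped reads to hg38 and called narrow peaks, and broad peaks for H3K27ac, against input chromatin. The version of MACS2, the treatment of reads with several matches and any blacklist are not given in the sources used here. The deposited fold enrichment was computed by the authors as a ratio of ChIP to input reads. Their deposited −log10 q gives a peak's significance, averaged over the region in broad lists, and the deposited score derives from it. The 16 columns of the deposited −log10 p were not used. Other deposited columns, such as the summit offset, hold positions. Depth per sample is unknown, and lists were not scaled to each other.

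Peaks outside chromosomes 1 to 22, X and Y were dropped, and 0 of the rest lay past a chromosome end. Genes, canonical start sites and gene bodies came from GENCODE 44. Peaks of the RELA and RELB lists that overlapped by at least 1 bp were joined into sites. A tandem repeat was a self-match of at least 0.4 over 1000 bp at shifts of up to 400 bp. Shares carry exact (Clopper-Pearson) 95% intervals. The named regions were the strongest RELA (30 min TNFα), RELB (6 h TWEAK) and FOSL1 region of each gene, any region within 1 kb of its start site, and treated regions found in 3 or more lists but not in vehicle. MAFF -12.9 kb and other sites outside this rule were named after their values were seen. The sequences of 2 promoters are not reported here. The members and lists were chosen with earlier results of these data known. Alternatives changed the window, q, fold, overlap, repeats and gene assignment. Functions were tested on simulated data, with 0 of 2000 overlap calls wrong and 300 of 300 planted motifs found. Python 3.11.15, numpy 2.4.6, pandas 2.3.3, scipy 1.17.1, pysam 0.24.0 and matplotlib 3.10.9 were used.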

Additional observations from a re-analysis of the deposited data

How the results depend on the processing

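No paired analysis was possible because each list pools the replicates of its condition, and no replicate could be left out for the same reason. Of 62 alternative values, 35 stayed within the main value's limits (1.5 times for counts, the exact interval for the share with FOSL1, the third decimal for H3K27ac ratios). The 9 members with a RELA region at 30 min of TNFα and not in vehicle became 6 with windows of 10 kb and 10 with 100 kb. They became 7 with a fold of at least 5 and 8 with regions nearest to a member's start site. Shares of all genes are given for the main setting alone. With windows of 10 kb, 1 member in place of 4 had a RELA region at 6 h of TNFα and not in vehicle, and 1 in place of 3 a RELB region at 6 h of TWEAK and not in vehicle. The same windows held 9 RELA regions of 30 min of TNFα, 3 RELB regions of 6 h of TWEAK and 24 FOSL1 regions. With windows of 100 kb, 7 members had a RELA region at 6 h of TNFα and not in vehicle, and there were 40 RELA and 143 FOSL1 regions. A fold of at least 5 left 38 FOSL1 regions. Regions nearest to a member's start site numbered 17 for RELA, 4 for RELB and 47 for FOSL1. Without the RELA list of 30 min of TNFα, an alternative chosen after seeing the data, 4 members in place of 9 had a RELA region not in vehicle in the other 3 treated lists.

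H3K27ac length ratios have no interval. Counting the stretch shared by ATF3 and BATF3 once, an alternative chosen after seeing the data, gave 0.951 for 30 min of TNFα and 0.895 for 6 h of TWEAK and left 6 h of TNFα at 0.975. Each other alternative moved all 3 ratios. For 30 min of TNFα the ratio turned above 1 with windows of 10 kb (1.05) and with regions nearest to a member's start site (1.02), and was 0.933 with windows of 100 kb and 0.946 with q of at most 0.001. For 6 h of TNFα it was 0.966 (10 kb), 0.977 (100 kb), 0.967 (q) and 0.957 (nearest), and for 6 h of TWEAK 0.940, 0.871, 0.865 and 0.898. The cause was not tested. List lengths, unknown depth and the open pooling of 1 RELA list limit every count, and absence from a list is not absence of binding.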

Other observations

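The CArG box, the element bound by serum response factor, was searched after the sequences had been seen. Exact matches within 100 bp of the summit were found in 4 of the 86 FOSL1 regions in the family windows (4.65%), against 0.933% of all 58864 FOSL1 regions. They included the FOSL1 region of the FOS promoter, one 26 kb upstream of FOSL2 and one near the start site of MUS81 in the FOSL1 window. At the FOS promoter the match lay 18 bp from the FOSL1 summit. A match is a description of the letters and was not tested as a site.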
